A study of Mus musculus with 12 samples.

Results

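Back-splicing of Rreb1 and Sos2, 2 genes of RAS signalling, was described in mouse livers with carbon tetrachloride (CCl4) injury, with and without Pien Tze Huang (PZH). In a circular RNA (circRNA) an exon's end is joined back to its own start or to that of an exon before it, and the table lists each such junction by its outer genome positions. The members were all junctions lying inside either gene with at least 1 end on an exon boundary of it. There were 15 of them among 16445 in the table, 6 in Rreb1 and 9 in Sos2, and all 15 had both ends on boundaries. The genes were chosen by the PZH and Control SRPBM values of 1 junction of each, which had stood out in an earlier analysis of these data. Differences between the groups in the members are therefore given as a description, without a test.

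The PZH group held livers of 6 mice injected with 10% CCl4 (10 µl for every 10 g of mouse) 2 times a week for 8 weeks. They were also given PZH, a medicine of the Chinese tradition, once a day from week 2 to week 8 at 25 mg/ml. The Control group held livers of 6 mice with the same CCl4 injections and no PZH. The strain is written C57BL/8 in the labels, and their age is not given in the sources used here. All mice carried the toxin injury, so no value below is relative to a healthy liver. The values are the authors' SRPBM, a name used for junction-spanning reads scaled to a library's mapped reads. Whole tissue was sequenced, so fewer cells of a type and less RNA per cell cannot be told apart. A value listed at 0 was not read as absence.

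RAS proteins are small GTPases that pass growth factor signals from receptor tyrosine kinases at the membrane to the RAF, MEK and ERK kinases. SOS2, like its paralog SOS1, is a guanine nucleotide exchange factor that is brought to activated receptors by the adaptor GRB2 and loads RAS with GTP. RREB1 is a zinc finger transcription factor that binds RAS-responsive DNA elements and acts with SMAD factors in responses to TGF-beta. Both TGF-beta and receptor tyrosine kinase signals act on hepatic stellate cells, the main source of scar matrix in injured liver.

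The junction sequences of the members the results turn on are printed first, since a circle is counted from reads that cross its junction. Each shows the last 15 bases of the circle's last exon in lower case and the first 15 bases of its first exon in capitals, 5′ to 3′ on the RNA strand, written as DNA. They were read from GENCODE M21 transcripts (GRCm38). Rreb1 lies on the plus strand, at chr13:37778400-37952005, and Sos2 on the minus strand, at chr12:69583762-69681852. Exon numbers refer to 1 annotated transcript of each gene, with 13 exons in Rreb1 and 23 in Sos2.
Rreb1 exons 2 to 6: tgggaacatgcacagGTTGTTGCAATCCTG
Rreb1 exons 2 to 8: agataacccactaagGTTGTTGCAATCCTG
Rreb1 exons 7 to 8: agataacccactaagACATATGAAGATTCA
Sos2 exons 2 to 5: ttgttcaagccttctGTTCAGGAGCAAGTA
Sos2 exons 14 to 16: gaccacacgtttgagGGAAAGCCATGAAGA
Sos2 exons 13 to 16: gaccacacgtttgagGGTCTTGAATGTCTT
The Rreb1 circles of exons 2 to 6 and 2 to 8 carry the same capitals because both begin at exon 2. The Rreb1 circles of exons 2 to 8 and 7 to 8 carry the same lower-case letters because both close from exon 8, and the last pair of Sos2 circles likewise closes from exon 16.

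The 15 junctions were gathered at few exon ends. In Rreb1, 3 junctions began at exon 2 and closed from exons 4, 6 and 8, at chr13:37888871-37893984, chr13:37888871-37899787 and chr13:37888871-37916595. The others joined exons 5 to 6 (chr13:37898412-37899787), exons 7 to 8 (chr13:37916022-37916595) and exon 8 to itself (chr13:37916459-37916595). The circles of exons 2 to 6 and 7 to 8 lie side by side, and the circle of exons 2 to 8 spans both. In Sos2, 4 junctions began at exon 2 and closed from exons 3, 4, 5 and 7, and 4 lay within exons 13 to 16. The ninth joined exons 19 to 21 (chr12:69588700-69593048).

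**Figure D1:**
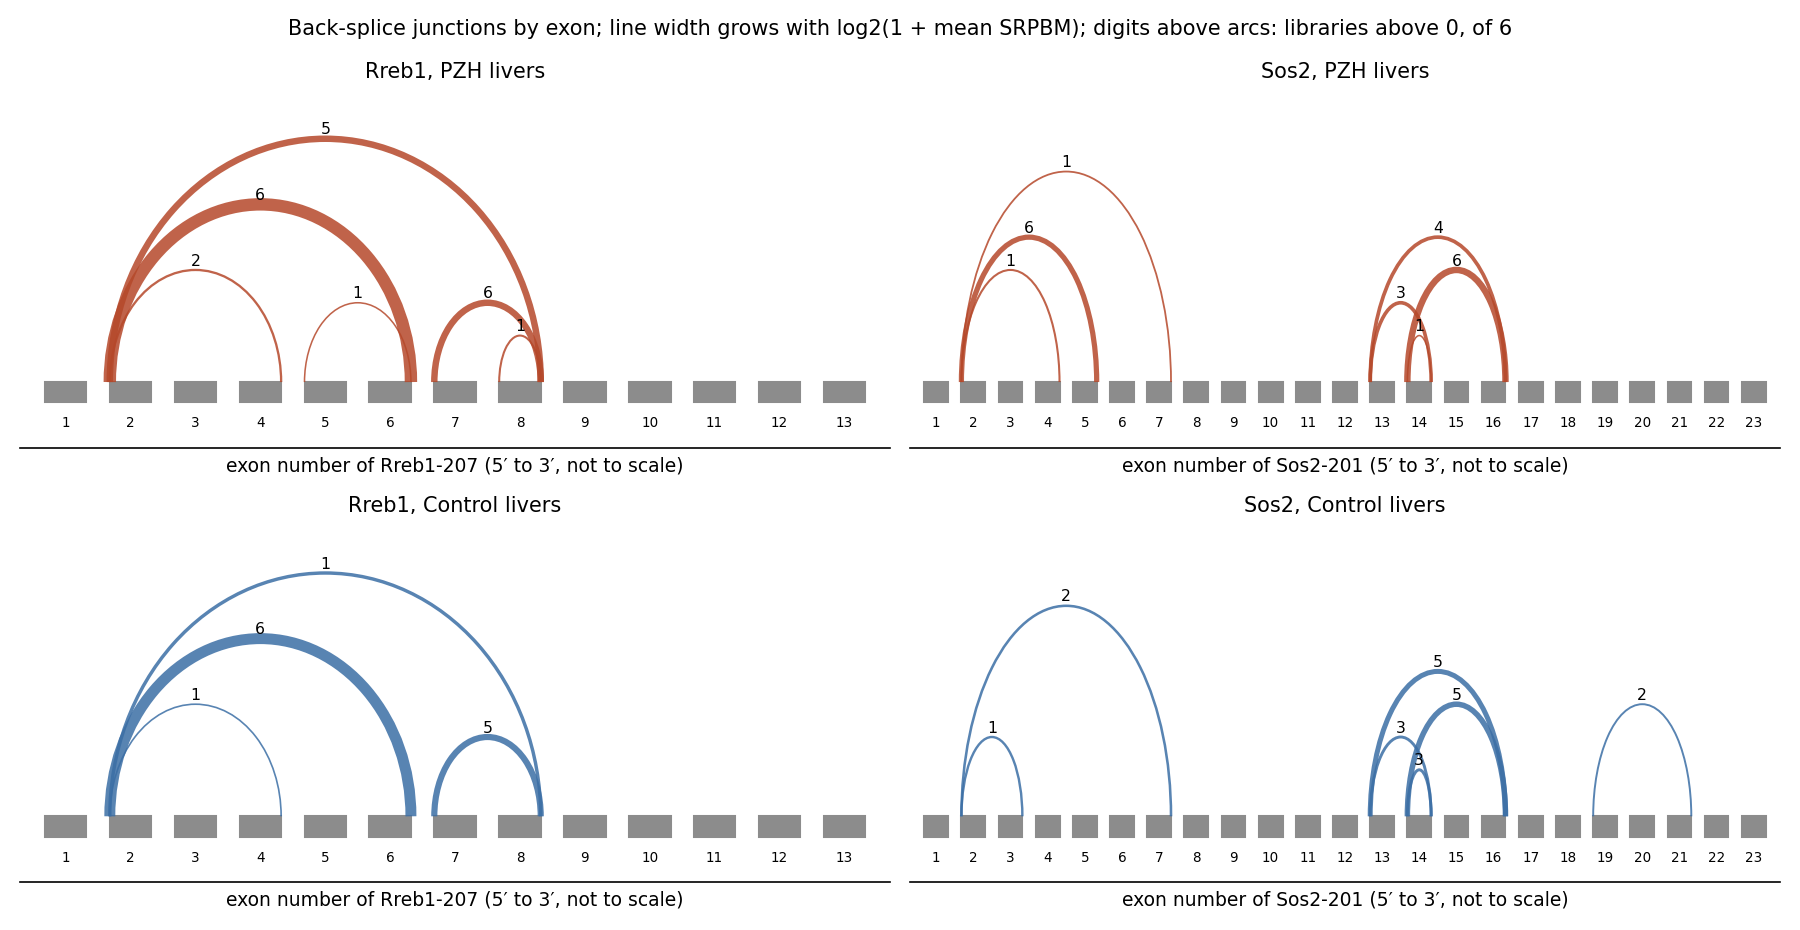
Arcs join the first and last exon of each Rreb1 (left) and Sos2 (right) junction above 0 in PZH livers (top) and in Control livers (bottom); the horizontal axis is exon number, line width grows with log2(1 + mean SRPBM) and the digit above an arc is the number of the 6 libraries above 0. The exons 2 to 5 arc of Sos2 appears in the PZH panel with 6 libraries and has none in the Control panel.

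The annotated parts of the genes that the circles span differ. The Rreb1 junctions from exon 2 take in 251 bp of 5′ UTR and the annotated start codon, which lies in exon 4, while the other 3 Rreb1 junctions and all 9 of Sos2 span coding sequence only. If every annotated exon is kept, the Rreb1 circle of exons 2 to 6 is 676 bp long. Its frame runs from the start codon through 141 whole codons to the junction and meets its first stop after 179 codons. The Sos2 circle of exons 2 to 5 is 630 bp long, a multiple of 3, so that the frame of the mRNA passes over the junction and back to its beginning without a stop. The same holds for the other 3 Sos2 circles from exon 2, of 258 bp, 423 bp and 885 bp. Over the members, 6 of 15 (40.0%) had a length divisible by 3, against 37.6% of all 15705 circles with a matched transcript. These are properties of the letters, and neither the inner exons nor translation was measured.

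A longer stretch of the Sos2 circle of exons 2 to 5 (chr12:69640054-69658078, minus strand) is shown because its junction was above 0 in all PZH libraries and in no Control library. All of exon 5 (207 bases) is in lower case, followed over the junction by the first 60 bases of exon 2 in capitals.
Sos2 exon 5 joined to exon 2: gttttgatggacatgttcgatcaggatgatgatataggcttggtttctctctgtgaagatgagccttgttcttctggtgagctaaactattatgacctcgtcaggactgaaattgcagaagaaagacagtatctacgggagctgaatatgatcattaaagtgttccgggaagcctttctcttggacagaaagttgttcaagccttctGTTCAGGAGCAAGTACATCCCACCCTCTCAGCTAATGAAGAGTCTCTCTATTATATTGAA
Exon 5 is absent from the Sos2 circles of exons 2 to 3 and 2 to 4, which close earlier onto the same capitals.

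The Rreb1 circle of exons 2 to 6 was the most abundant member and the only one above 0 in all 12 libraries. It lay between 29.7 and 47.3 SRPBM in PZH livers, with a median of 41.2, and between 18.6 and 30.7 SRPBM in Control livers, with a median of 24.3. The groups met at a single pair of libraries: PZH replicate 2 was the lowest of its group and lay just under Control replicate 3, the highest of the other. Its mean was 40.1 ± 6.01 SRPBM in PZH and 24.3 ± 4.32 SRPBM in Control (SD, n = 6 each), a log2 fold change of 0.72 (SE 0.17) on the log2(SRPBM + 0.636) scale, or 1.64-fold. The values stood for about 52.7 to 142 read-pair equivalents a library, where 1 equivalent is a library's smallest value divided by 2. Among all 16445 junctions it ranked 167th by mean level, and 95.7% of the 3870 junctions above 0 in at least 6 libraries were lower. Without Control replicate 6, the library with the lowest value, the log2 fold change was 0.65.

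The 2 further Rreb1 junctions with values in at least 6 libraries behaved differently from each other. The circle of exons 2 to 8, with the start of the abundant circle and the end of the exons 7 to 8 circle, was above 0 in 5 of 6 PZH libraries, at 3.58 to 9.36 SRPBM. In Control it was above 0 in replicate 3 alone, at 6.39 SRPBM, inside the PZH range. The circle of exons 7 to 8 lay between 2.54 and 7.63 SRPBM in PZH, with a median of 3.96, and between 0 and 6.95 SRPBM in Control, with a median of 4.12. Its groups overlapped over most of their ranges, and a single library, Control replicate 6, was listed at 0. Its log2 fold change was 0.44 (SE 0.57), and -0.07 without that library.

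The remaining 3 Rreb1 junctions were low, at 2.09 to 6.00 read-pair equivalents where above 0. Those of exons 2 to 4 were above 0 in 2 PZH libraries and 1 Control library, at 0.703 to 1.85 SRPBM. The circle of exons 5 to 6 and that of exon 8 were each above 0 in 1 PZH library, at 0.670 and 1.85 SRPBM. Over all libraries, exons 2 to 6 gave 80.6% of the Rreb1 signal, exons 7 to 8 gave 11.0% and exons 2 to 8 gave 7.21%. The share of exons 2 to 6 was 66.3% to 91.0% in PZH and 69.7% to 100% in Control, so the groups overlapped in how the signal was divided.

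Sos2 signal was lower and more scattered, and the fold changes of its members had both signs. The circle of exons 2 to 5 lay between 1.91 and 3.93 SRPBM in all 6 PZH libraries, with a median of 2.52, and was listed at 0 in all 6 Control libraries. No fold is given, since one group is at 0. The PZH values stood for 6.19 to 12.9 read-pair equivalents, so the 0 values in Control cannot be told from a low level. Of the 3870 junctions above 0 in at least 6 libraries, 3 (0.0775%) had this pattern of 6 PZH and 0 Control libraries, 19 (0.491%) had PZH values all above Control, and 7 (0.181%) had them all below. Among the 7 members in that set this circle was the only one whose groups did not overlap, and it was chosen for that. Of the same 7 members, 2 were above 0 in at least 4 more PZH than Control libraries (Sos2 exons 2 to 5 and Rreb1 exons 2 to 8), a pattern of 1.29% of the 3870, and none in at least 4 more Control libraries, a pattern of 0.93%. Nothing is read from these counts, because Sos2 exons 2 to 5 was chosen for its pattern and reached 6 libraries through PZH alone. Rreb1 exons 2 to 8 reached 6 libraries mainly through PZH.

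The other Sos2 circles from exon 2 did not follow the same pattern. Exons 2 to 7 (chr12:69632060-69658078) were above 0 in 1 PZH library and 2 Control libraries, at up to 2.68 SRPBM. Exons 2 to 4 (chr12:69648452-69658078) were above 0 in PZH replicate 2 alone, at 1.88 SRPBM, and exons 2 to 3 (chr12:69650600-69658078) in Control replicate 4 alone, at 2.81 SRPBM. Summed, the 4 junctions from exon 2 lay between 1.91 and 7.04 SRPBM in PZH, with a median of 2.52, and between 0 and 5.49 SRPBM in Control, with 4 libraries at 0. Control replicate 4, with 2 of these circles, was above 5 of the 6 PZH libraries in this sum, so the groups overlapped once the neighbouring closings were added. This sum and that of exons 13 to 16 were formed after the values were seen.

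The Sos2 junctions of exons 13 to 16 overlapped in level between the groups. The circle of exons 14 to 16 (chr12:69603476-69607412), the most abundant of Sos2, lay between 1.01 and 8.77 SRPBM in PZH, with a median of 4.81, and between 0 and 6.16 SRPBM in Control, with a median of 2.97. Exons 13 to 16 (chr12:69603476-69610826) lay between 0 and 4.38 SRPBM in PZH, with a median of 0.813, and between 0 and 5.51 SRPBM in Control, with a median of 2.04. Both pairs of groups overlapped, and the medians differed in opposite directions. Their log2 fold changes were 0.66 (SE 0.61) for exons 14 to 16 and -0.75 (SE 0.71) for exons 13 to 16. Exons 13 to 14 (chr12:69607190-69610826) were above 0 in 3 PZH and 3 Control libraries, and exon 14 alone (chr12:69607190-69607412) in 1 PZH and 3 Control libraries. The sum of these 4 junctions was 1.01 to 12.3 SRPBM in PZH, with a median of 7.57, and 0 to 10.7 SRPBM in Control, with a median of 7.75. The circle of exons 19 to 21 was above 0 in 2 Control libraries, at 0.707 and 0.825 SRPBM, and in no PZH library.

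**Figure D2:**
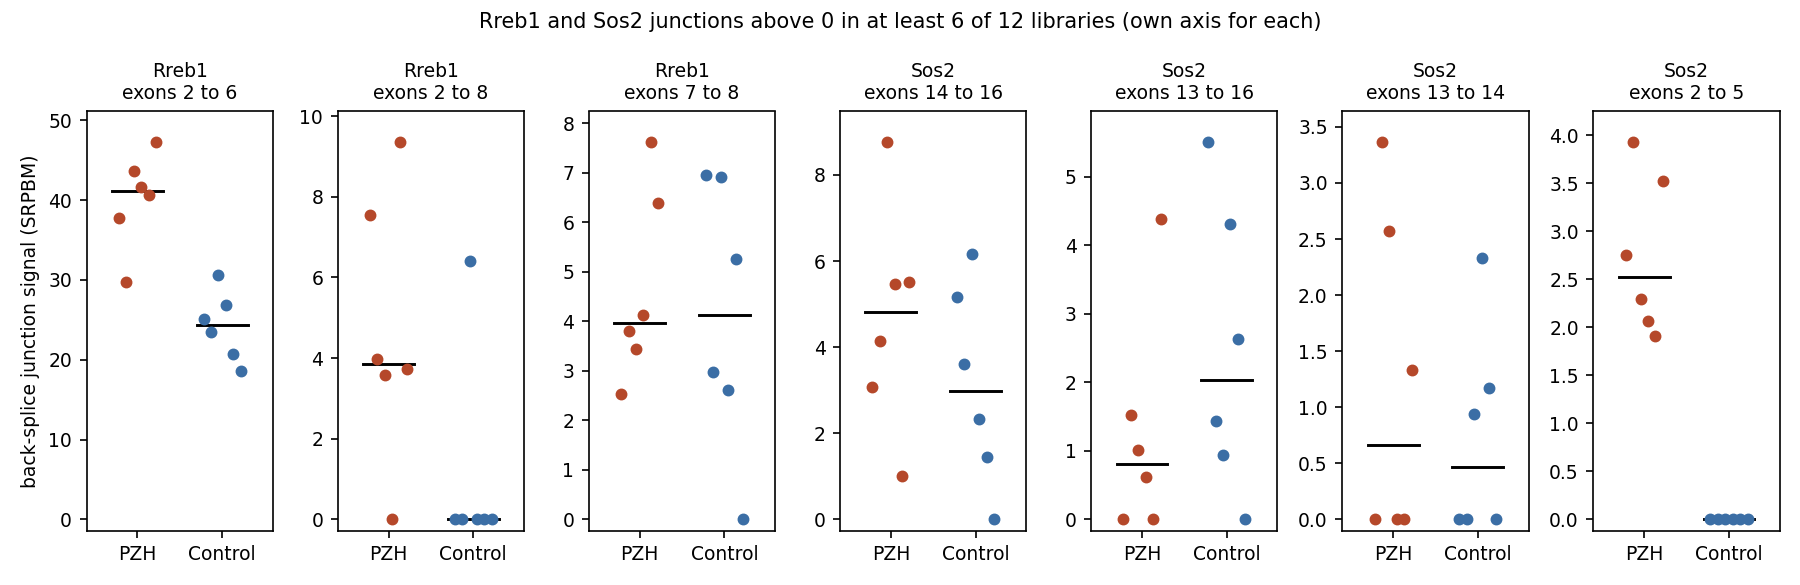
Each panel plots SRPBM (own vertical axis) of 1 of the 7 junctions above 0 in at least 6 libraries; points are single libraries, PZH left and Control right, and lines are medians. Rreb1 exons 2 to 6 has medians of 41.2 in PZH and 24.3 in Control. Sos2 exons 2 to 5 lies at 0 throughout Control, and the groups overlap in every other panel, that of Rreb1 exons 2 to 6 included.

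Summed over its 6 junctions, Rreb1 lay between 37.5 and 61.4 SRPBM in PZH, with a median of 50.0, and between 18.6 and 44.0 SRPBM in Control, with a median of 28.2. The highest Control library, replicate 3, was above PZH replicate 2 and below the other 5 PZH libraries. The log2 fold change of the sum was 0.78 (SE 0.19), a value that takes in the circle for which the gene was chosen. Without exons 2 to 6, the other 5 Rreb1 junctions summed to 4.12 to 20.7 SRPBM in PZH, with a median of 9.24, and to 0 to 13.3 SRPBM in Control, with a median of 4.56, and the groups overlapped. Sos2 summed over its 9 junctions lay between 2.92 and 16.1 SRPBM in PZH, with a median of 11.4, and between 0.707 and 16.1 SRPBM in Control, with a median of 8.07. These ranges overlapped nearly whole, and the log2 fold change was 0.43 (SE 0.54) with all libraries and -0.06 without Control replicate 6. Without exons 2 to 5, Sos2 lay between 1.01 and 12.3 SRPBM in PZH, with a median of 8.99, and between 0.707 and 16.1 SRPBM in Control, with a median of 8.07. Control replicate 6 was the lowest of the Control group for both sums. Its table held 30122 SRPBM and 4500 junctions above 0, against 28922 to 40927 SRPBM over the Control group, and its part in these values was not tested beyond leaving it out.

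**Figure D3:**
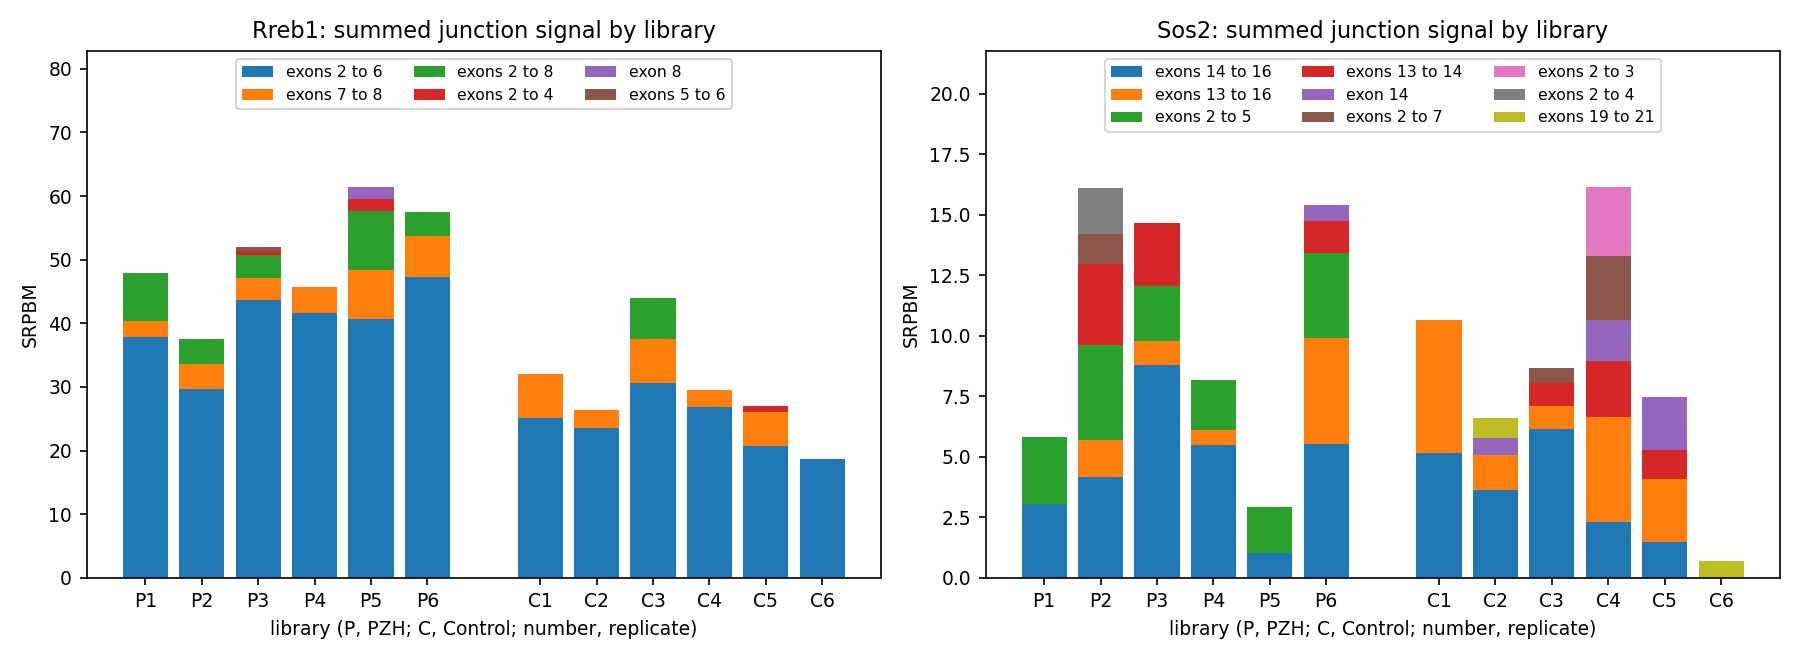
Stacked bars give SRPBM per library for Rreb1 (left) and Sos2 (right), 6 PZH libraries followed by 6 Control libraries in each panel, with a colour for each junction. The bars of Rreb1 are mostly the exons 2 to 6 circle, while those of Sos2 change in make-up from library to library.

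Between the genes, Rreb1 was higher than Sos2 in 12 of 12 libraries. The sums averaged 40.0 ± 13.5 SRPBM for Rreb1 and 9.44 ± 5.22 SRPBM for Sos2 (SD, n = 12), and the mean within-library log2 ratio was 2.20, a 4.60-fold difference (exact sign-flip permutation p = 0.000488, 2-sided, the smallest that 12 libraries can give). Both sums take in the circles for which the genes were chosen, and exons 2 to 6 gave 80.6% of the Rreb1 signal. The p is therefore not independent of that choice. Junction reads are not scaled by length because each circle has 1 junction. In the order of mean level, Rreb1 exons 2 to 6 (32.2 SRPBM) was followed by Rreb1 exons 7 to 8 (4.39), Sos2 exons 14 to 16 (3.89), Rreb1 exons 2 to 8 (2.88), Sos2 exons 13 to 16 (1.86), Sos2 exons 2 to 5 (1.37) and Sos2 exons 13 to 14 (0.976). The other 8 junctions averaged 0.0559 to 0.437 SRPBM. The first lay above the second in every library, and from the second place down the ranges of all neighbours overlapped. No test was made between neighbours, since only 1 junction was above 0 in every library.

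The signal of the genes was divided in different ways. Of 4729 host genes, 18.0% had at least the 6 junctions of Rreb1 and 9.14% at least the 9 of Sos2. Among the 853 hosts with 6 or more junctions the most abundant junction gave a median of 49.5% of the host's signal. That of Rreb1 gave 80.6%, more than in 87.9% of these hosts, and that of Sos2 gave 41.2%, more than in 31.1%. The hosts were not matched for number of junctions, and Rreb1 has the lowest number among them. Its most abundant junction is also the one for which it was chosen. The Rreb1 circle of exons 2 to 6 stood on a mean of 100.1 read-pair equivalents a library and the Sos2 circle of exons 14 to 16 on 12.1.

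Long introns before exon 2 were common to both genes. The intron before exon 2 of Rreb1 is 62526 bp long, longer than the upstream intron of 95.1% of the circles compared, and that before exon 2 of Sos2 is 23436 bp, longer than 77.8%. The median over these circles was 8585 bp. They begin at any exon, so the introns before exon 2 were not ranked among first introns alone. Starts at exon 2 made up 7 of 15 members (46.7%), against 24.7% of all 15705 circles with a matched transcript and 29.4% of the 3797 above 0 in at least 6 libraries. These members share a single start in each gene, and both circles for which the genes were chosen begin there. The Sos2 circles of exons 13 to 16 have shorter flanks, with 3310 bp before exon 14, 3809 bp before exon 13 and 4582 bp after exon 16. With 2 genes, this is a description and not a comparison of groups.

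**Figure D4:**
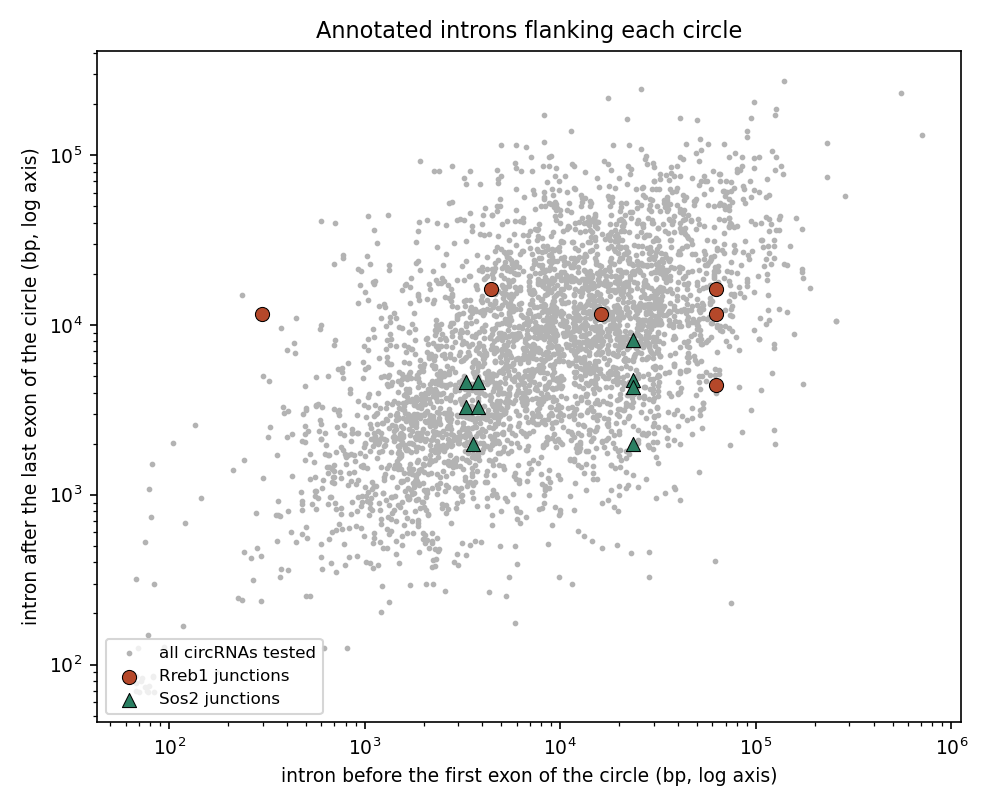
The annotated intron before the first exon (horizontal, bp, log axis) is plotted against the intron after the last exon (vertical, bp, log axis) of each circle; grey points are all circles above 0 in at least 6 libraries, circles are Rreb1 junctions and triangles Sos2 junctions. The 3 Rreb1 junctions from exon 2 stand at 62526 bp, to the right of most grey points.

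By Spearman rho over the 12 libraries, the circle most like Rreb1 exons 2 to 6 came from Ezh2, a histone methyltransferase that silences genes. Among 1087 circles of other hosts above 0 in every library, Ezh2 exons 2 to 3 had a rho of 0.965, with a Pearson r of 0.904 for log2 values and 0.695 after centring within groups. It averaged 40.0 ± 7.33 SRPBM in PZH and 27.2 ± 2.68 SRPBM in Control (SD, n = 6 each). Circles of Tbc1d5, Arhgap12 and Bub1b (Spearman rho of 0.874 each) and Rbm39 (rho of 0.867) came next, with within-group r of 0.796 for Arhgap12, above that of Ezh2, and 0.438 for Bub1b. The rho takes in the difference between PZH and Control for which Rreb1 was chosen, so circles with higher values in PZH are placed first by it. For Sos2 exons 14 to 16 the nearest were circles of Esco1, Pon1, Tcf25, Psd3 and Mertk, with rho of 0.818 to 0.867 and within-group r of 0.698 to 0.803. All these points share library depth, and the highest of 1087 or 1088 coefficients were picked in each case.

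The pathway around the genes was looked at through a list of 119 genes in 8 roles, Rreb1 and Sos2 left out. Of these, 52 hosted at least 1 of 200 junctions, and 51 junctions of 26 genes were above 0 in at least 6 libraries. None of the 51 passed an adjusted p of 0.05 in limma, with or without its variance trend, where 2 of all 3870 did, both higher in PZH (0.0517%). At an unadjusted p under 0.05 there were 4 higher and 4 lower in PZH, 15.7% of 51, against 7.55% of all 3870 (4.55% higher and 3.0% lower). Among circles above 0 in all 12 libraries the shares were 12.5% of 24 in the list and 12.3% of all 1089, and with no filter 3.5% of 200 and 3.19% of all 16445, so the gap was not seen under either other filter. The positive and negative log2 fold changes numbered 26 and 25, with a median of 0.01 against 0.06 over all circles. Several junctions come from 1 gene, so they are not independent.

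Among receptors, the circle of exon 2 of Insr, the insulin receptor, was the most abundant, at 45.6 ± 3.44 SRPBM in PZH and 44.4 ± 8.31 SRPBM in Control. The Fgfr2 circle of exons 3 to 6, from a fibroblast growth factor receptor, was at 26.3 ± 3.78 SRPBM in PZH and 16.6 ± 3.35 SRPBM in Control, with no overlap of the groups (log2 fold change 0.66, SE 0.19, adjusted p = 0.408 in limma). Its circle of exons 4 to 6 was at 14.3 ± 3.22 SRPBM in PZH and 8.62 ± 2.19 SRPBM in Control (log2 fold change 0.70, SE 0.26, adjusted p = 0.551 in limma). Fgfr2 exons 5 to 6 (20.7 SRPBM in PZH, 21.2 in Control) and exons 3 to 4 (14.1 and 15.8) were not higher in PZH. Their log2 fold changes were -0.05 (SE 0.24) and -0.17 (SE 0.24). The rarer Fgfr2 circles of exons 4 to 5 and 3 to 5 had log2 fold changes of 0.26 (SE 0.64) and 0.64 (SE 0.69). Of the adaptors a single circle could be tested, that of Gab1 (16.6 ± 5.65 SRPBM in PZH, 11.7 ± 2.73 SRPBM in Control). Of 7 other exchange factor genes only Sos1, the paralog of Sos2, had junctions, 5 in all, each above 0 in at most 3 libraries. Its circle of exons 2 to 8 reached 9.45 SRPBM and was above 0 in 1 PZH and 2 Control libraries. The Sos1 circle of exons 2 to 4 also began at exon 2, and the others began at exons 3, 13 and 17. All were too rare to compare.

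Of the RAS GTPases, Rras2 gave the most abundant circle of the whole list, of exons 2 to 4, at 76.8 to 99.9 SRPBM in PZH and 71.9 to 130.9 SRPBM in Control (log2 fold change -0.28, SE 0.13, adjusted p = 0.654 in limma). Among negative regulators, Spred2 exons 2 to 4, from an inhibitor of RAF activation, was at 42.6 ± 7.99 SRPBM in PZH and 37.7 ± 7.06 SRPBM in Control, and none of 8 circles had an unadjusted p under 0.05. In the kinase cascade, exon 2 of the scaffold gene Shoc2 was at 18.0 ± 5.92 SRPBM in PZH and 16.5 ± 4.34 SRPBM in Control. Cnksr3 exons 2 to 4, from a family of scaffold proteins, was at 5.75 ± 1.36 SRPBM in PZH and 10.5 ± 2.31 SRPBM in Control (log2 fold change -0.80, SE 0.30, adjusted p = 0.551 in limma). Other Cnksr3 circles had the opposite sign. The more abundant one, of exons 3 to 4, was at 16.9 ± 4.45 SRPBM in PZH and 13.5 ± 3.51 SRPBM in Control (log2 fold change 0.32, SE 0.24). The rare circle of exons 3 to 6 had a log2 fold change of 1.16 (SE 0.64).

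Other effectors and targets also gave no call. Exon 2 of Pik3r1, a regulatory subunit of PI3-kinase, was at 23.0 ± 5.29 SRPBM in PZH and 26.9 ± 5.33 SRPBM in Control. Exon 2 of Plce1, a RAS-activated phospholipase, was above 0 in 6 PZH and 5 Control libraries, at 4.58 to 12.8 SRPBM in PZH and 0 to 6.56 SRPBM in Control (log2 fold change 1.21, SE 0.52, adjusted p = 0.601 in limma). Exons 22 to 23 of Pik3cb, a catalytic subunit, were above 0 in 5 PZH and 2 Control libraries (log2 fold change 1.55, SE 0.74, adjusted p = 0.649 in limma). Of Dusp16, a MAP kinase phosphatase, exons 2 to 3 were at 31.4 ± 5.30 SRPBM in PZH and 25.5 ± 3.30 SRPBM in Control, and exons 2 to 4 were above 0 in 3 PZH and 6 Control libraries (log2 fold change -1.55, SE 0.65, adjusted p = 0.578 in limma). Exons 6 to 7 of Rps6ka3, an ERK-activated kinase, were above 0 in 1 PZH and 5 Control libraries (log2 fold change -1.90, SE 0.76, adjusted p = 0.566 in limma). Many values of this circle, Pik3cb exons 22 to 23 and Dusp16 exons 2 to 4 were at 0, so their fold changes depend on the pseudocount. Each reached 6 libraries mainly through the group where it was higher. All are among the listed circles counted with an unadjusted p under 0.05.

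**Figure D5:**
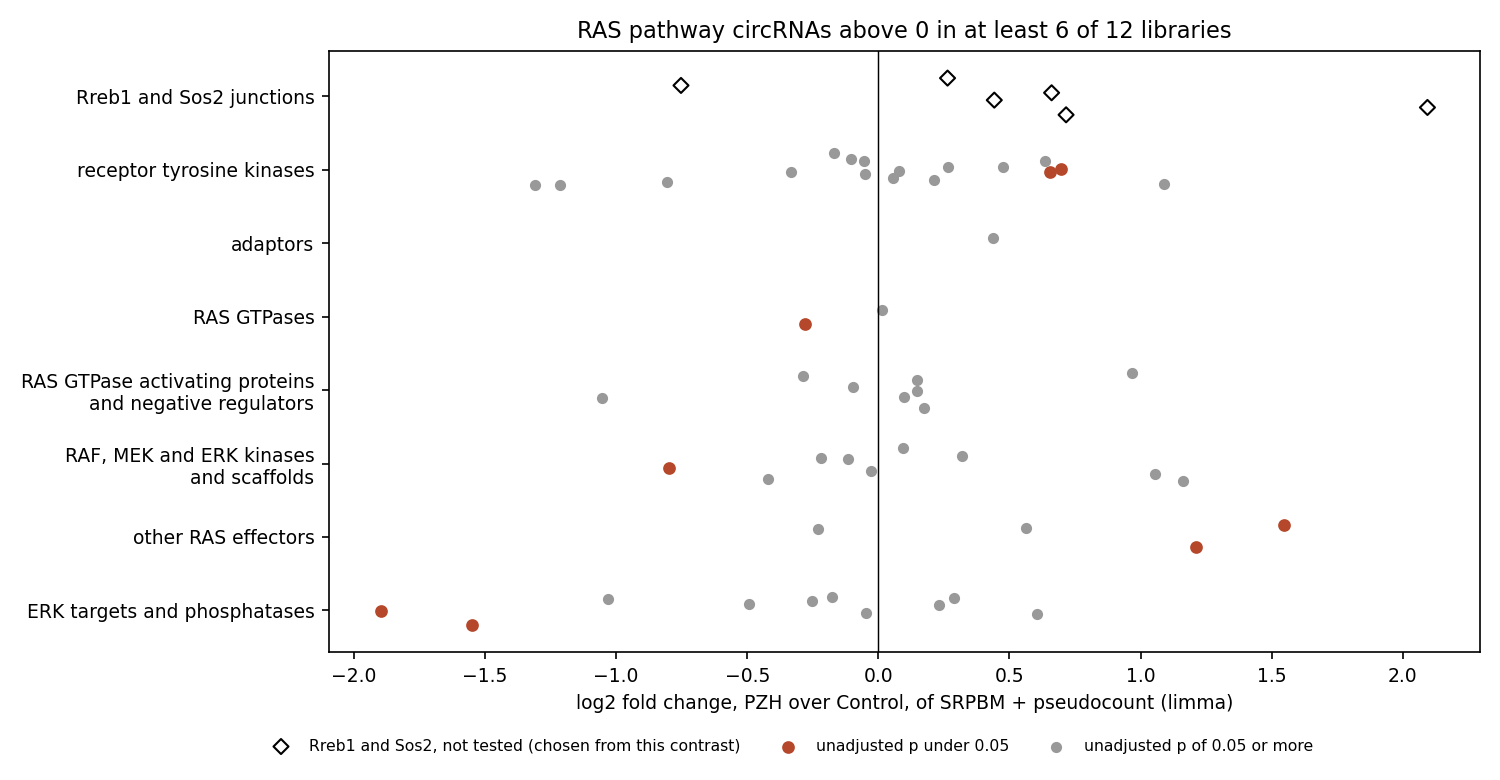
Each point is a circle above 0 in at least 6 libraries, placed by its log2 fold change (PZH over Control, horizontal axis) and its role in RAS signalling (rows); red points have an unadjusted p under 0.05 in limma. Open diamonds are 6 Rreb1 and Sos2 junctions above 0 in both groups, shown without a test; the listed circles fall on both sides of 0, 26 positive and 25 negative.

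Over the whole table, libraries held 31472 to 41080 SRPBM in PZH and 28922 to 40927 SRPBM in Control. Circles of 14 of 18 hepatocyte marker genes summed to 244 to 350 SRPBM in PZH and 206 to 343 SRPBM in Control. Circles of macrophage markers (4 of 10 genes) summed to 40.6 to 65.7 SRPBM in PZH and 34.0 to 56.6 SRPBM in Control. Those of endothelial markers (6 of 10) summed to 2.39 to 13.5 SRPBM in PZH and 1.99 to 11.2 SRPBM in Control, and those of cholangiocyte markers (2 of 8) to 3.88 to 12.5 SRPBM in PZH and 1.75 to 16.3 SRPBM in Control. Of 12 stellate cell markers only Reln had circles, at 4.12 to 11.7 SRPBM in PZH and 0 to 3.32 SRPBM in Control, and the collagen genes, Dcn, Lrat, Des and Acta2 had none. The medians of all 5 sums were higher in PZH. They were 298 SRPBM in PZH and 281 SRPBM in Control for hepatocyte markers, 8.10 and 0.680 for Reln, 50.7 and 37.6 for macrophage, 7.69 and 6.51 for endothelial and 6.82 and 6.29 for cholangiocyte markers. The ranges of the groups overlapped for all sums but that of Reln. The Rreb1 circle of exons 2 to 6 and the Sos2 circle of exons 2 to 5 were chosen by their PZH and Control values. Their higher medians in PZH are therefore no separate result. Whether these circles followed the marker sums from library to library, and the part of cell types in them, was not tested.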

How the data were processed

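RNA of 12 mouse livers was sequenced after Trizol extraction and TruSeq library preparation on an Illumina HiSeq, per the labels' protocols. The authors deposited 1 table with a signal in SRPBM per junction and library. Trim Galore, STAR and the assembly GRCm38 (mm10) are named in the submitters' processing notes; for the circRNA caller, filters and SRPBM definition, "not given in the sources used here" applies. Low values lay near whole multiples of each library's smallest value divided by 2 for 56.8% to 63.8% of entries, too few to recover reads, so no count model was used. Libraries held 80442 to 130487 such read-pair equivalents.

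Hosts came from GENCODE M21 (15737 junctions matched at both ends, 628 at 1 end). PZH was compared with Control on the log2(SRPBM + 0.636) scale, the pseudocount being the median smallest value, by limma 3.58.1 with its trend option (R 4.3.3), over 3870 junctions above 0 in at least 6 libraries, 2-sided, with Benjamini-Hochberg adjustment. The script was tested on simulated data, with changes put only into circles above 0 in all 12 libraries. Recovery of changes in circles with values at 0 was not tested. The within-library ratio of Rreb1 to Sos2 was tested by exact sign-flip permutation. Python 3.11.15, pandas 2.3.3, numpy 2.4.6, scipy 1.17.1 and matplotlib 3.10.9 were used. Members and lists were chosen with earlier results of these data known. The text names every member, the most abundant circle of each role and each listed circle with an unadjusted p under 0.05, and the 5 circles most like each gene's most abundant one. Mice of the same replicate number are not said to be paired. P-values set a difference or ratio against its spread between these mice.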

Additional observations from a re-analysis of the deposited data

Results flagged for a closer look

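In 2 of 17 groups of 6 member values, 1 library stood apart by a gap past Dixon's 95% critical value (chance gives about 1 in 20 where values are continuous). Control replicate 3 had 6.39 SRPBM of the Rreb1 circle of exons 2 to 8, listed at 0 in the other 5 Control libraries. With 5 values at 0 the gap is the whole range whatever the sixth value is, so the chance rate does not apply to it. The Sos2 circle of exons 13 to 16 was at 4.38 SRPBM in PZH replicate 6, against at most 1.53 SRPBM in the other 5 PZH libraries.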

How the results depend on the processing

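The log2 fold change of the Rreb1 sum, which takes in the circle for which the gene was chosen, was 0.74 to 0.79 across 8 other pseudocounts, filters, scalings and models and 0.66 to 0.90 without single libraries; that of the Rreb1 circle of exons 2 to 6 was 0.67 to 0.73 and 0.65 to 0.80. That of the Sos2 sum was 0.32 to 0.52, and -0.06 to 0.72 without single libraries, negative without Control replicate 6 alone. The log2 ratio of the Rreb1 to the Sos2 sum was 1.98 to 3.09 over 3 other settings and 2.03 to 2.33 without single libraries. The junctions with a group at or near 0 have fold changes set by the pseudocount: that of Rreb1 exons 2 to 8 was 3.77 with 0.1 SRPBM and 1.21 with 2 SRPBM.

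Calls at an adjusted p under 0.05 over all circles, 2 in the fit reported, numbered 1 with a pseudocount of 2 SRPBM, 30 with no filter, 10 among circles above 0 in all 12 libraries and 1 to 3 without single libraries (1 without PZH replicates 2, 4 or 6 or Control replicates 2 to 6). Host gene sums, with no limma call among 2204 in the fit reported and unadjusted p under 0.05 for 112 higher and 67 lower in PZH, gave 6 with no filter, 1 each with a pseudocount of 2 SRPBM, among sums above 0 in all libraries and with median-of-ratios or summed-SRPBM scaling, and 0 to 3 without single libraries (1 without PZH replicate 3 or Control replicate 6, 3 without PZH replicate 5). Unadjusted p under 0.05 was reached by 134 circles among those above 0 in all libraries and by 524 with no filter, against 292. In the RAS list it was 3 of 24 circles above 0 in all libraries and 4 to 10 without single libraries (5 without PZH replicate 5, 4 without Control replicate 3), against 8, and no listed circle passed the adjusted threshold in any setting. The number of junctions of each gene was the same with both ends required.

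With the replicate number as a block, calls numbered 1 over all circles and 2 over host gene sums. Deviations of same-numbered libraries correlated at -0.05 to 0.02, so the numbers gave no sign of pairing, and no library correlated best with its own number. Tests between neighbours in the order of levels were not run, for want of junctions above 0 in all libraries. The low members stood at a few read-pair equivalents, where a 0 cannot be told from a low level.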
